A study of Schizosaccharomyces pombe with 5 samples.

Results

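The M-cell pheromone and receptor genes of fission yeast (Schizosaccharomyces pombe) are 8 genes with which cells of the M mating type make, export and receive mating signals. They were taken by gene symbol from the platform annotation of a cDNA array, which named a single gene for 4865 of its 5184 spots. Of the 8 genes, 7 had a spot, out of 4797 genes with a value: mfm1, mfm3, mam1, mam2, mam3, mam4 and sxa2. The M-factor gene mfm2 was not analysed here, because no spot carried its symbol. Each of the 7 genes had 1 spot, in 7 different blocks of the array.

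The study followed resting cells as they returned to growth. Strain L972 was starved of nitrogen for 48 h at 26 °C, which brings cells to a non-dividing G0 state, and fresh complete EMM2 medium was then added, so effects of nitrogen and of fresh medium cannot be told apart. Cells taken 1, 2, 3.5 or 6 h later, or cells growing logarithmically in EMM2 without prior starvation, gave polyadenylated RNA labelled with Cy5. For 3 of the samples (3.5 h, 6 h, vegetative) the description field instead says 2 h; the title, source and treatment fields, which disagree with it, were used. RNA of the starved G0 cells carried Cy3 on all 5 arrays, so dye and state cannot be told apart. Each condition had 1 array. Values are log ratios of these Cy5-labelled cells over G0 cells per spot, read as log2, so a value of -1 means 2-fold lower than in G0. No label names the base of these logarithms, and base 2 is an assumption.

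Strain L972 is a heterothallic h- strain, which makes M cells and no P cells, so these cultures held no partner that secretes P-factor. In fission yeast, M cells secrete M-factor, a farnesylated and carboxyl-methylated peptide encoded redundantly by the mfm genes, and sense P-factor of the opposite type through a receptor coupled to a G protein. Nitrogen starvation is the cue for mating in this yeast: it turns on the transcription factor Ste11, which acts with the M-type regulator Mat1-Mc on M-specific genes. Spotted cDNA of near-identical genes such as the mfm genes can bind each other's transcripts, so the values of mfm1 and mfm3 may not be separate measurements.

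No value had a replicate array, and each array gave 4765 to 4781 genes a ratio. The error that could be measured was the spread between repeated spots of an array, with a pooled SD of 0.182 to 0.254 for 3 named control genes and of 0.381 to 0.471 for 12 unnamed positions present in all 16 blocks. The larger of these was used as the error of a single spot. Gene medians of the 5 arrays lay between 0.00 and 0.14, and values of the 1 h and 2 h arrays were given to 9 decimals but those of the other arrays to 3, so the arrays came in 2 sets that times cannot be told apart from. Spot intensities were not used here, so ratios from weak spots could not be marked.

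The genes of the M-factor precursor, its exporter and the P-factor receptor lay far below their G0 level on every array. The genes for agglutination, M-factor methylation and P-factor degradation lay nearer to it, on either side. The M-factor genes mfm1 and mfm3, the exporter gene mam1 and the P-factor receptor gene mam2 were at least 2-fold lower than G0 on all 5 arrays, as were 6.1% of the 4708 genes with all values. The other members, mam3, mam4 and sxa2, were at least 2-fold lower on 0, 1 and 3 of the 5 arrays.

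The M-factor precursor gene mfm1 had log2 ratios of -3.65 (1 h), -6.25 (2 h), -6.21 (3.5 h), -6.22 (6 h) and -7.83 (vegetative). As a fold, that was 12.6-fold lower at 1 h and 228-fold lower in vegetative cells. The ratio was thus at its lowest of the time course by 2 h, and the values at 2, 3.5 and 6 h differed by less than the spot error. With arrays scaled to a common spread they did not level off: mfm1 stood at -5.50, -6.39 and -7.60 at these times and was 2-fold lower at 6 h than at 3.5 h (-1.21). In RNA of whole cultures, fewer cells with a transcript and less of it per cell cannot be told apart.

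The M-factor precursor gene mfm3 had log2 ratios of -4.00 (1 h), -5.90 (2 h), -6.89 (3.5 h), -6.61 (6 h) and -8.36 (vegetative). It was 16-fold lower at 1 h and 329-fold lower in vegetative cells, where it was the lowest of 4765 genes and mfm1 ranked 2 from the bottom. Both genes followed nearly the same course. Their difference, mfm1 minus mfm3, was 0.35, -0.35, 0.68, 0.39 and 0.53 in array order, which on no array exceeded 2 SD of the difference between single spots (SD 0.539 to 0.666). The root mean square difference of the pair over the 5 arrays was 0.48.

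**Figure D1:**
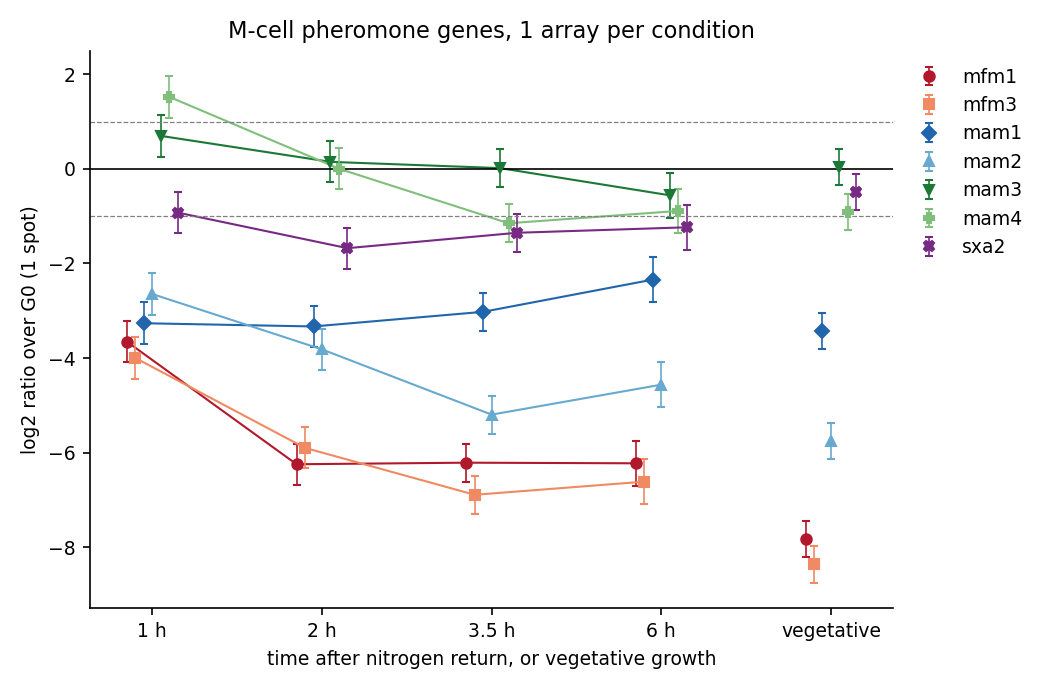
Log2 ratio over G0 (y axis) of the 7 measured genes at 1, 2, 3.5 and 6 h after nitrogen return and in vegetative cells (x axis); each point is 1 spot of 1 array, bars are the SD between spots at 12 repeated positions of that array, lines join the time course, and dashed lines mark 2-fold. The M-factor genes mfm1 and mfm3 lie lowest from 1 h on and reach -7.83 and -8.36 in vegetative cells, while mam3 stays between the dashed lines.

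The gene mam1 encodes the ABC transporter that exports M-factor. Its log2 ratios were -3.26 (1 h), -3.33 (2 h), -3.02 (3.5 h), -2.34 (6 h) and -3.44 (vegetative). It was therefore 9.61-fold lower at 1 h, which was 94.9% of its vegetative log2 ratio. At 6 h this share was 68.1%. The same share at 1 h was 46.6% for mfm1, 47.8% for mfm3 and 46.1% for mam2. These shares divide values of arrays that differ in spread (median absolute deviation of genes 0.90 at 1 h, 0.61 vegetative). After scaling to a common spread, mam1 had -2.63 (1 h) against -4.13 (vegetative), so its 1 h value fell further short. The scaled pairs, 1 h then vegetative, were -2.94 and -9.41 for mfm1, -3.22 and -10.05 for mfm3, and -2.13 and -6.90 for mam2.

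The gene mam2 encodes the P-factor receptor, a 7-transmembrane protein coupled to a G protein. Its log2 ratios were -2.65 (1 h), -3.82 (2 h), -5.20 (3.5 h), -4.56 (6 h) and -5.75 (vegetative). The receptor gene differed by -1.38 between 2 h and 3.5 h, a step at which mfm1 differed by 0.03 and mfm3 by -0.99. With arrays scaled to a common spread, these differences were -1.98 for mam2, -0.89 for mfm1 and -1.89 for mfm3. The receptor gene was 6.26-fold lower at 1 h and 36.7-fold at 3.5 h. In vegetative cells it was 53.7-fold lower, and there it ranked 7 from the bottom of all genes.

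The gene sxa2 encodes the secreted carboxypeptidase with which M cells degrade P-factor, and P-factor itself is known to induce it. Its log2 ratios were -0.93 (1 h), -1.68 (2 h), -1.35 (3.5 h), -1.24 (6 h) and -0.48 (vegetative). Its lowest value was 3.20-fold below G0, at 2 h, and in vegetative cells it lay 1.40-fold below. On the vegetative array 27.1% of genes lay lower than sxa2.

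The gene mam4 encodes the methyltransferase that methylates the carboxyl end of M-factor after farnesylation. Its log2 ratios were 1.52 (1 h), 0.00 (2 h), -1.15 (3.5 h), -0.89 (6 h) and -0.91 (vegetative). It was the only one of the 7 genes at least 2-fold above G0 on any array, at 1 h (2.87-fold), and it lay 2.22-fold below G0 at 3.5 h.

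The gene mam3 encodes the M-specific agglutinin of the cell surface. Its log2 ratios were 0.70 (1 h), 0.15 (2 h), 0.01 (3.5 h), -0.56 (6 h) and 0.04 (vegetative). No array placed it 2-fold from G0, and its largest departure was 1.58 times the spot SD. The gene mam301, once also called mam3, has a spot of its own and was not counted here.

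The order of the 7 genes held a clear gap on every array. At 1 h the lowest values were those of mfm3, mfm1, mam1 and mam2. Among these, no neighbours in the order differed by more than 2 SD of a difference between single spots. Pairs further apart in the order, such as mfm3 (-4.00) and mam2 (-2.65), were not compared in this way. From mam2 to sxa2 the gap was 1.72, beyond 2 SD (SD 0.622). In vegetative cells mfm3 and mfm1 did not differ beyond 2 SD, and gaps of 2.08, 2.31 and 2.52 then separated mfm1 from mam2, mam2 from mam1 and mam1 from mam4 (SD 0.539). The values of mam4, sxa2 and mam3 followed with gaps of 0.43 and 0.52, within 2 SD.

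**Figure D2:**
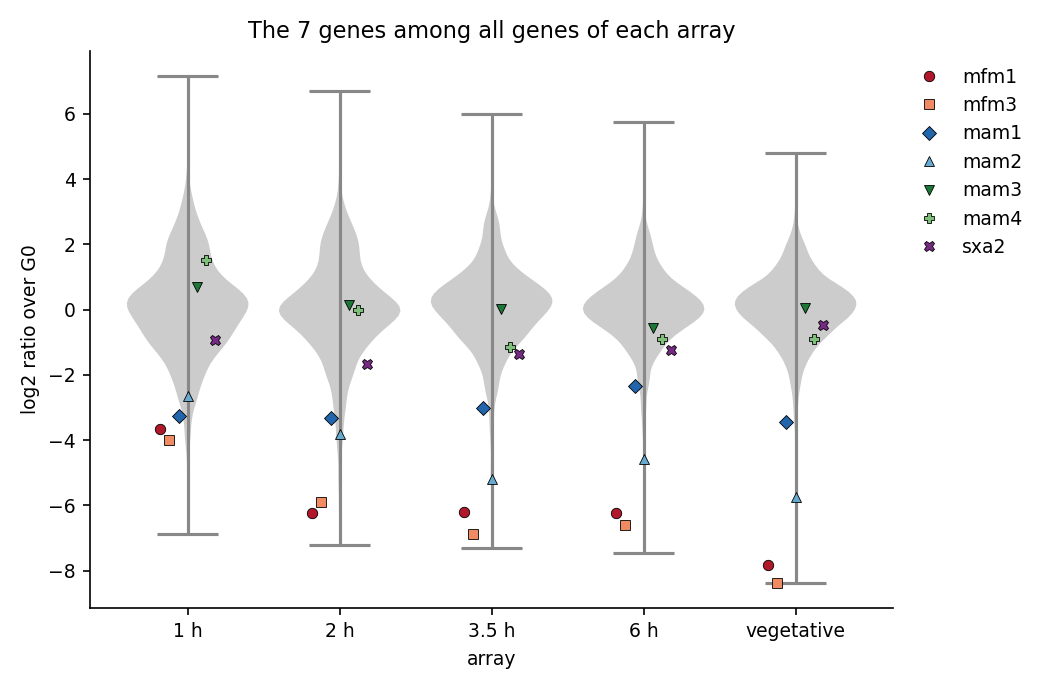
Log2 ratio over G0 (y axis) of all genes on each array (grey shapes, whose width shows how many genes lie there and whose end bars mark the lowest and highest gene) with the 7 measured genes as coloured symbols. In vegetative cells mfm3, at -8.36, sits on the lower end bar of 4765 genes.

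Counted by array, 4 of the 7 genes were at least 2-fold lower than G0 at 1 h, against 22.6% of all genes, and 1 was higher (mam4), against 23.4%. At 2 h, 5 were lower (21.3% of all genes) and 0 higher (22.8%). At 3.5 h, 6 were lower (16.7%) and 0 higher (18.9%). The exception at 3.5 h was mam3. At 6 h, 5 were lower (14.9%) and 0 higher (15.6%), and in vegetative cells 4 were lower (14.6%) and 0 higher (15.8%). The median of the 7 genes was -2.65, -3.33, -3.02, -2.34 and -3.44 in array order, against gene medians of 0.06, 0.00, 0.14, 0.04 and 0.09. It was the value of mam2 at 1 h and of mam1 on the other arrays. These counts go by a rule of size with no test.

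Between successive arrays, mfm1 and mfm3 differed most in the step to 2 h and in the gap between 6 h and vegetative cells. The receptor gene mam2 differed most between 2 h and 3.5 h (-1.38). At 2 h against 1 h, mfm1 differed by -2.59, mfm3 by -1.90, mam4 by -1.52 and mam2 by -1.17. These 4 of 7 genes were at least 2-fold lower at the later time, against 7.49% of all genes, and 0 were higher, against 4.67%. The exporter gene mam1 differed by -0.07 at this step. The SD of such a difference between single spots was 0.617, so that of mam2 was 1.90 times the SD and that of mfm1 over 4 times.

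At 3.5 h against 2 h, mam2 differed by -1.38 and mam4 by -1.15. These 2 of 7 genes were 2-fold lower, against 10.4% of all genes, and 0 were higher, against 11.6%. The M-factor gene mfm3 stood just inside the limit at -0.99. This step crosses the 2 sets of arrays, and a part of the sets in these differences was not tested. At 6 h against 3.5 h, none of the 7 genes was 2-fold lower or higher, against 2.85% and 4.13% of all genes, with differences from -0.57 for mam3 to 0.68 for mam1.

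In vegetative cells against 6 h cells, mfm3 differed by -1.75, mfm1 by -1.61, mam2 by -1.18 and mam1 by -1.10. All 4 genes that were low on every array were thus lower still in cells that had not been starved. These 4 of 7 were 2-fold lower, against 2.54% of all genes, and 0 were higher, against 3.03%. Among 4756 genes these differences ranked 18, 21, 59 and 85 from the lowest. They were 2.89, 2.65, 1.95 and 1.81 times the SD of a difference between single spots (0.606). The genes sxa2, at 0.75, and mam3, at 0.60, lay on the other side, within the 2-fold limit.

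Against 3.5 h, 2 of the 7 genes were 2-fold lower in vegetative cells, mfm1 (-1.62) and mfm3 (-1.47), against 7.91% of all genes, and 0 were higher, against 8.12%. The receptor gene mam2 differed by -0.55 and the exporter gene mam1 by -0.41 in this comparison. With arrays scaled to a common spread, 4 genes rather than 2 were 2-fold lower. All comparisons of arrays take G0 as the same level on both, although it is not known from the labels if the same G0 RNA went on each array.

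**Figure D3:**
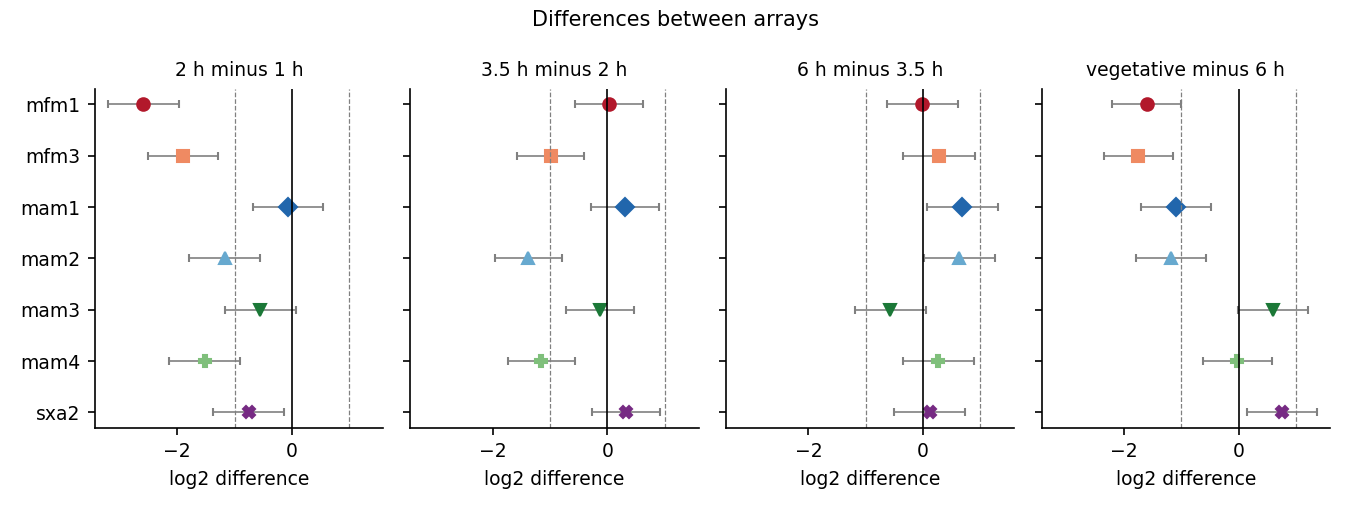
Differences in log2 ratio between arrays (x axis) for the 7 genes (rows), in panels for 2 h minus 1 h, 3.5 h minus 2 h, 6 h minus 3.5 h and vegetative minus 6 h; bars are the SD of a difference between single spots and dashed lines mark 2-fold. In the vegetative minus 6 h panel mfm1, mfm3, mam1 and mam2 lie between -1.75 and -1.10, left of the 2-fold line.

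The design allowed a test of trend over the 4 time course arrays (limma, log2 ratio on log2 hours, with 2 residual degrees of freedom and Benjamini-Hochberg adjustment over 4730 genes). Each time had 1 array, so SE and p reflect scatter around a straight line in log2 hours, not spread between cultures. The arrays at 1 and 2 h belong to 1 set and those at 3.5 and 6 h to the other. A slope therefore cannot be told apart from a difference between these sets. Among all genes, 5.07% fell and 4.08% rose at a limma adjusted p under 0.05. Of the 7 genes, mfm3 fell by 1.06 ± 0.25 (SE) per doubling of time, with a limma adjusted p of 0.0461. The methyltransferase gene mam4 fell by 1.00 ± 0.23 (SE) per doubling, with a limma adjusted p of 0.0441. The slope of mfm1 was -0.94 ± 0.30 (SE; limma adjusted p = 0.0875) and that of mam2 was -0.85 ± 0.25 (SE; limma adjusted p = 0.0697), so neither passed. The slopes of mam3 (-0.46), mam1 (0.35) and sxa2 (-0.09) had limma adjusted p values of 0.116, 0.239 and 0.804. Both calls were lost with arrays centred on their gene medians (limma adjusted p 0.0563 for mfm3 and 0.0543 for mam4), and without the 1 h, the 3.5 h or the 6 h array (limma adjusted p 0.112 to 0.44 for mfm3 and 0.117 to 0.304 for mam4).

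The other mating genes are described by list. The enzymes that prenylate and trim CAAX proteins, M-factor among them, had modest ratios. The farnesyltransferase beta subunit gene cpp1 was at -1.63 at 1 h and -0.64 in vegetative cells, and the alpha subunit gene cwp1 at -1.10 and -0.80. The CAAX protease genes ste24 and rce1 stood at 0.38 and -0.78 in vegetative cells. Of these 4 genes, 3 were at least 2-fold lower at 1 h (22.6% of all genes) and 0 in vegetative cells (14.6% of all genes), which with so few genes says little.

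Genes of the opposite mating type, P, were also spotted, but a ratio over G0 cells of the same strain cannot check the mating type. The M-factor receptor gene map3 had log2 ratios of 2.09 (1 h), 1.87 (2 h), 1.42 (3.5 h), 1.15 (6 h) and 0.50 (vegetative), so it lay above G0 whereas the P-factor receptor gene mam2 lay below it. The P agglutinin gene map4 stayed between -0.69 and -0.31. The protease gene sxa1, which acts on M-factor, lay between -1.48 and -0.28. A ratio does not show whether a transcript was present, and whether these spots held signal of their own genes was not tested. The P-factor gene map2 had no spot under its symbol. The M-type regulator gene mat1-Mc, which can share signal with its silent copy, was 2-fold lower on all 5 arrays, at -1.67, -1.63, -1.36, -1.09 and -1.77 in array order. The other M-type gene of that locus, mat1-Mi, stayed between -0.58 and 0.33.

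In the pheromone signal pathway, 1 of the 11 genes with a value was at least 2-fold lower at 1 h, below the 22.6% of all genes. On each later array 5 were lower, against 21.3%, 16.7%, 14.9% and 14.6% of all genes in array order. The mitogen-activated protein kinase gene spk1 had log2 ratios of -0.95, -1.82, -2.40, -2.36 and -3.34 in array order. The gene rgs1, a negative regulator of the pheromone G protein, stood at -1.17, -1.94, -3.17, -2.26 and -3.00. The G protein alpha subunit gene gpa1, which acts directly below the receptor, stood at -0.36, -1.18, -1.74, -1.94 and -2.00. At 1 h, gpa1 (-0.36) was thus within 2-fold of G0 and spk1 (-0.95) only just inside that limit, when mam2 was 6.26-fold lower. The Ras activator gene ste6 stood at 0.38 (1 h), -1.89 (6 h) and -2.21 (vegetative), and ras1 was 2-fold higher at 1, 2 and 3.5 h (1.48, 1.57 and 1.11). The kinase genes byr2 and byr1, which act above spk1, were 2-fold lower at 2 h (-1.37 and -1.56). At 3.5 h byr1 was still 2-fold lower (-1.45), whereas byr2 was at -0.16. In vegetative cells byr2 and byr1 stood at -0.12 and -0.26. The annotation ties the byr2 spot to a gene identifier that the RefSeq table does not hold, so its identity rests on the symbol alone. The exchange factor gene scd1 had no value.

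Among 7 transcription factor genes, the number at least 2-fold lower was 1, 4, 4, 3 and 5 in array order, against 22.6%, 21.3%, 16.7%, 14.9% and 14.6% of all genes. The gene of the mating regulator ste11 stood at -1.47, -1.37, -1.08, -0.55 and -2.32 in array order. It was thus within 2-fold of G0 at 6 h, when mfm1 was 74.8-fold and mam2 23.6-fold lower. The P-specific factor gene map1 was at 0.73 at 1 h and -1.68 in vegetative cells, and nrg1 reached -4.36 in vegetative cells.

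Of 11 genes for conjugation and entry into meiosis, the number at least 2-fold lower was 4, 3, 4, 5 and 6 in array order, against the same shares of all genes. The formin gene fus1, needed for cell fusion, had log2 ratios of -0.19, -0.38, -1.27, -2.05 and -2.80. The meiosis regulator gene mei2 stood at -0.51, -1.90, -2.25, -1.96 and -2.48, and ste7 between -2.86 and -1.86. In this list mei4, a forkhead factor gene of meiosis, was 2-fold higher at 1 h and 2 h (1.79 and 1.44) and 2-fold lower in vegetative cells (-2.00). The medians of the signal pathway, the transcription factors and the conjugation list in vegetative cells were -0.26, -1.25 and -1.69, against -3.44 for the 7 M-cell genes. The latter median was the value of mam1 alone. The M-cell genes were split there, with mfm1, mfm3 and mam2 lower and mam4, sxa2 and mam3 between -0.91 and 0.04. Only nrg1 (-4.36) among the genes of these lists was below -3.44 in vegetative cells.

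**Figure D4:**
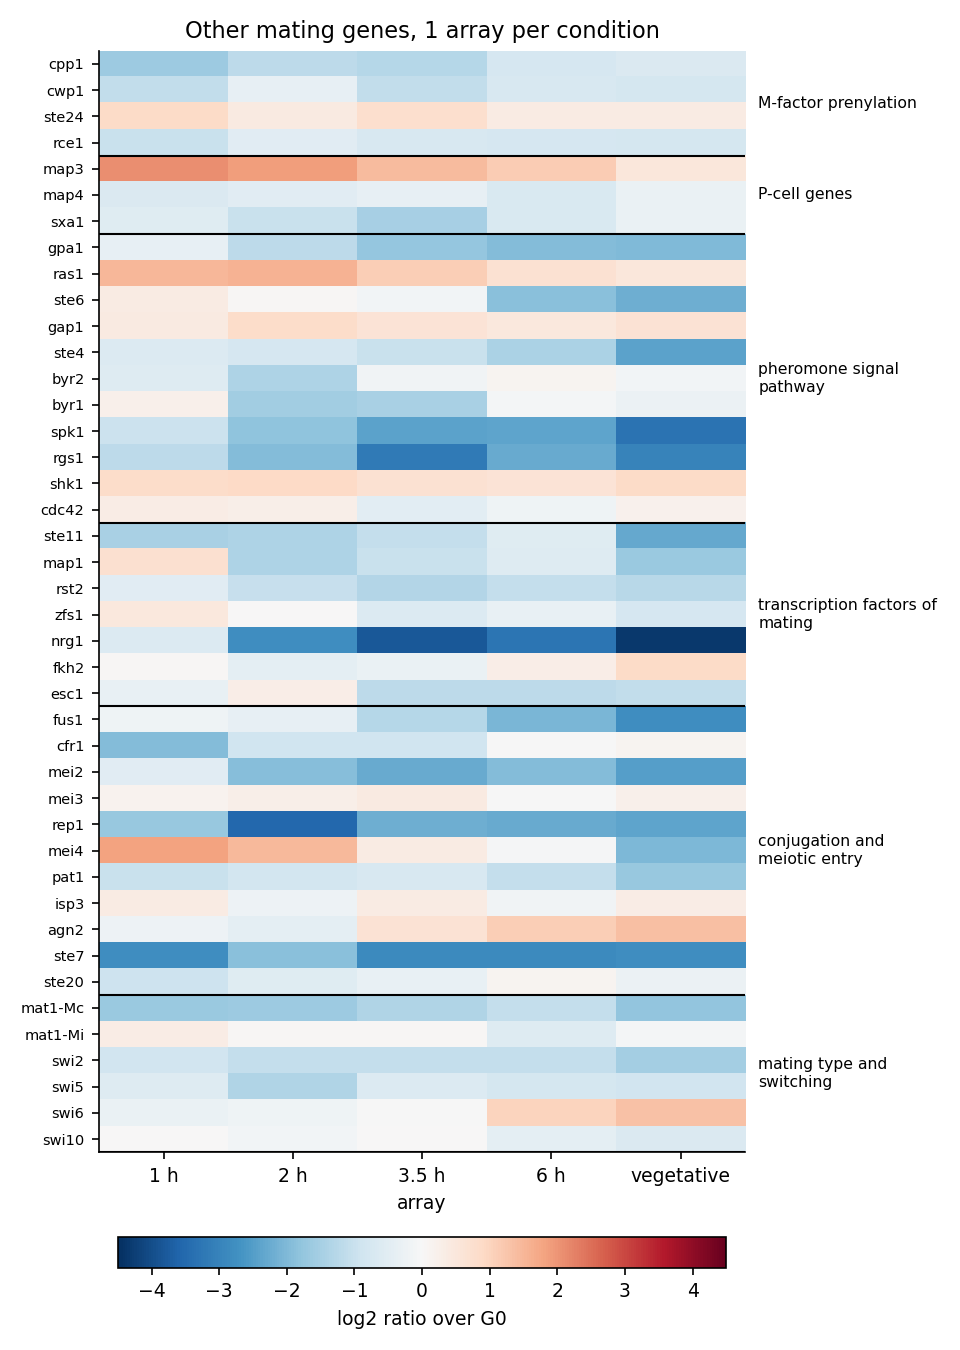
Log2 ratio over G0 (colour, from blue below to red above) of 42 other mating genes with a value (rows, by list) on the 5 arrays (columns), 1 array per condition. The genes spk1, rgs1, fus1 and mei2 are lowest or near their lowest in vegetative cells, and map3 is red from 1 h (2.09) to 6 h (1.15).

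The profile nearest to an M-factor gene was that of the other M-factor gene. Outside the 7 genes, the 5 of 4701 genes nearest to the mean of mfm1 and mfm3 by root mean square difference over the 5 arrays were zym1, pdc201, SPOM_SPAC869.04, SPOM_SPAC869.03C and urg1, at 0.90, 1.12, 1.20, 1.44 and 1.81. The metallothionein gene zym1 stood at -3.40 (1 h), -7.30 (3.5 h) and -6.55 (vegetative). The pyruvate decarboxylase gene pdc201 stood at -2.94, -5.28 and -6.53 on the same arrays. All of these distances were above the 0.48 between mfm1 and mfm3. Nearest to the median profile of the 7 genes were SPOM_SPBC1348.12 (0.40), the autophagy gene atg1802 (0.46), SPOM_SPAC688.03C (0.49), the dihydroxyacetone kinase gene dak2 (0.50) and pib1 (0.50). That median profile was the value of mam2 at 1 h and of mam1 on the other arrays.

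**Figure D5:**
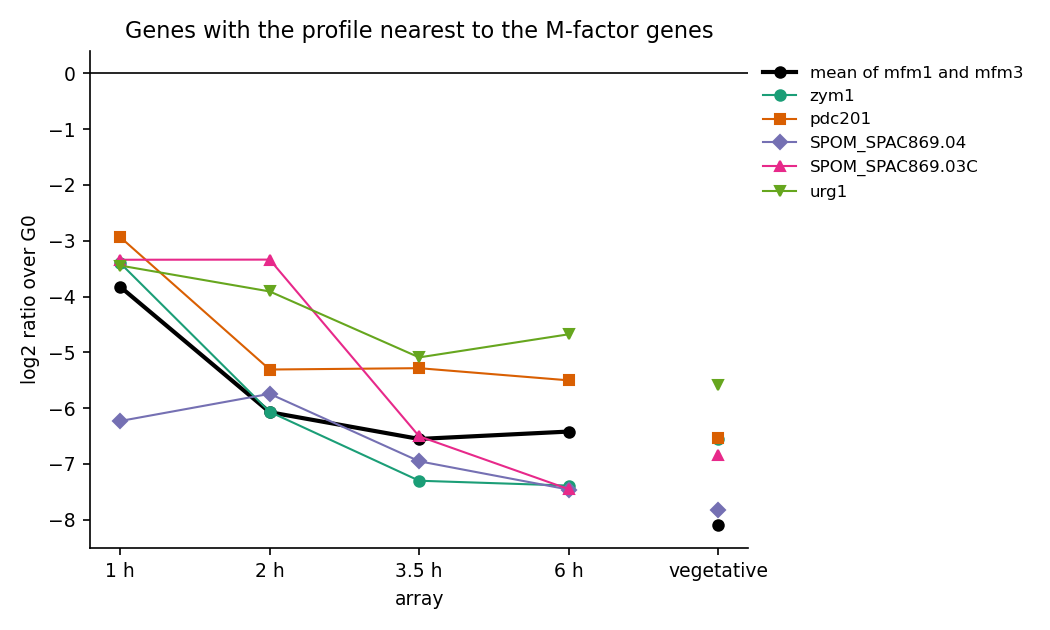
Log2 ratio over G0 (y axis) on the 5 arrays (x axis) of the mean of mfm1 and mfm3 (black) and of the 5 other genes with the smallest root mean square difference from it; lines join the time course. In vegetative cells the mean of the M-factor genes is at -8.10 and zym1 at -6.55.

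The chromosomal neighbours of the 7 genes lay on both sides of G0. Of the 28 annotated genes within 2 places of a member on either side, 10 had a value at 1 h and in vegetative cells, many of the others being non-coding genes. Of these 10 neighbours, 4 were at least 2-fold lower and 1 higher at 1 h (22.6% and 23.4% of all genes), with a median of -0.71. In vegetative cells 2 were lower and 2 higher (14.6% and 15.8% of all genes), with a median of -0.39 and a lowest value of -1.30. The ribosomal protein gene rpl302, next to mfm1, stood at 2.51 at 1 h, when mfm1 was at -3.65. Among the nearest protein-coding genes, chosen as an alternative after seeing the data, 26 had a value in vegetative cells, with a median of -0.31 and a lowest value of -2.14.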

How the data were processed

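Each deposited value is a log ratio of Cy5 (cells after nitrogen return, or vegetative cells) over Cy3 (G0 cells), per the labels, and was read here as log2. For image reading, background correction and normalization the steps are not stated in the labels or the file. Of 5184 spots, 22 carried several gene names and 297 none, and these were left out. Spots of 1 gene were averaged. The authors' average for nda3 leaves out 1 spot, which was left out of the control SD here. Symbols, older names and neighbouring genes came from RefSeq assembly ASM294v3, and coordinates are left out since no build is named. A gene was called at 2-fold. limma 3.58.1 (R 4.3.3) fitted the trend. This step was run on simulated data with known slopes and independent noise, which checks the slopes but not the limma p values on these arrays. Other steps used Python 3.11.15, numpy 2.4.6, pandas 2.3.3 and matplotlib 3.10.9.

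The members, the 6 lists of mating genes and the tests were chosen with earlier results of these data known. Named genes were the members, the genes of these lists, the 5 genes nearest each of 2 profiles and the members' chromosomal neighbours. Sequences and promoter motifs were not analysed here. Alternatives were centring by array or block, scaling, the summary of repeated spots, genes with all values, the fold limit, the logarithm's base, and the form and arrays of the trend. With 1 array per condition, precision is limited by the number of arrays.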

Additional observations from a re-analysis of the deposited data

Results flagged for a closer look

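Among the members and the listed mating genes, 2 genes lay past 2-fold in opposite directions on different arrays. The methyltransferase gene mam4 had a log2 ratio of 1.52 at 1 h and of -1.15 at 3.5 h. The meiotic factor gene mei4 had a log2 ratio of 1.79 at 1 h and of -2.00 in vegetative cells. Each value came from 1 spot of 1 array, and the difference between the conditions was not tested for either gene beyond the trend over the time course.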

How the results depend on the processing

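Other summaries of repeated spots and genes with all values could not change the members, since each had 1 spot and a value on every array. Centring by array or block moved no count of lower or higher members by over 1.5 times. It moved no median of the members by over the spot error. Within that limit, centring by array or by block gave 3 rather than 2 members lower at 3.5 h against 2 h. Centring by array gave 5 rather than 4 members lower in vegetative cells against G0. Scaled arrays put the median of the members at -2.13 (1 h), -2.86 (6 h) and -4.13 (vegetative), with 1 member (mfm1) lower at 6 h against 3.5 h and 4 lower in vegetative cells against 3.5 h. A limit of 4-fold left 0 members higher at 1 h, 1 lower at 2 h against 1 h, and 0 lower at 3.5 h against 2 h and in vegetative cells against 6 h or 3.5 h. A limit of 1.5-fold gave 2 members higher at 1 h, 2 at 6 h against 3.5 h, and 2 and 1 in vegetative cells against 6 h and 3.5 h. Read as natural logarithms, the medians would be -3.82, -4.81, -4.36, -3.38 and -4.96 in array order on the log2 scale, with 2 members higher at 1 h and 1 higher in vegetative cells against 6 h and against 3.5 h. The trend passed for 2 members as reported, for 0 with centred arrays or plain hours, for 4 with scaled arrays, and for 0 to 4 when 1 array was left out. Its slope changed sign for mam1 with scaled arrays (-0.11) and, when the 1 h array was left out, for mfm1 and sxa2. These 3 slopes did not pass. Leaving out 1 array in turn gave slopes of -1.46 to 0.013 for mfm1 and of -0.26 to 0.28 for sxa2. The causes were not tested. Of 245 recomputed member values against G0, 204 moved by less than the spot error and 41 by more. For 245 differences between arrays these numbers were 227 and 18. Part of this was fixed in advance, as other summaries of repeated spots and genes with all values could change no member. All of the larger moves came from scaling or the natural logarithm. No called value or difference changed sign. Scaling and the logarithm's base could not change the sign of a value against G0. No paired analysis was possible because each condition had 1 array.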
